A study of Rattus norvegicus with 16 samples.

Results

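The MHC class II presentation genes Cd74, RT1-Da, RT1-Db1, RT1-Ba, RT1-Bb, RT1-DMa, RT1-DMb, Ciita and Ifi30 were followed in rat microglia after brain irradiation. The 9 genes were taken by symbol from a table of 21842 gene symbols, each was found on 1 Ensembl gene ID, and all 9 were among the 13608 gene IDs of 30560 that passed the filter on low counts. RNA of microglia, which are the macrophages that live in brain tissue, had been sequenced in bulk after sorting from whole brains of male rats of the Wistar (Hsd/Cpb:WU) stock. The 4 groups held 4 libraries each. Radiation_LPS rats had received 14 Gy of X-rays and, 6 weeks later, an intraperitoneal injection of lipopolysaccharide (LPS), part of the outer wall of bacteria. Radiation_PBS rats had received the same dose and then phosphate-buffered saline (PBS), the vehicle. Control_LPS and Control_PBS rats were sham-irradiated and injected with LPS or PBS at the same interval. Cells of all groups were dissociated mechanically in the cold and gated as living cells with high CD11b and intermediate CD45. Neither the time from injection to collection nor the age is given in the sources used here. The animals are not named either, so a p-value here measures only how far these libraries vary, which may be technical.

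MHC class II molecules are pairs of an alpha and a beta chain that hold peptides from engulfed proteins on the cell surface, where helper T cells read them. In the rat the RT1-D pair (RT1-Da and RT1-Db1) and the RT1-B pair (RT1-Ba and RT1-Bb) are the classical molecules, Cd74 is the invariant chain that guards their groove on the way to the endosome, RT1-DMa and RT1-DMb form the exchanger that loads the peptide, Ifi30 is a lysosomal thiol reductase that unfolds antigens, and Ciita is the master transcriptional coactivator of the family. Microglia of the healthy brain carry little class II, and its rise is a classical sign of their activation.

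Ciita acts through a promoter module in which an X box and, downstream of it, a Y box lie at a nearly fixed spacing. The module was looked for in RefSeq promoters of build GRCr8 (from 250 bases before to 50 bases after the gene start), which held 7 of the 9 genes. RT1-DMb and Ciita had no entry. The X box was spelled CCNAG, then NN, then ACNGATG without a gap, with up to 2 mismatches, and the Y box GATTGG. The boxes do not overlap, and the spelling was chosen with class II sequences in view. On the gene's own strand, 4 of the 7 promoters (RT1-Da, RT1-Db1, RT1-Bb and RT1-DMa) held an X box followed within 40 bases by a Y box, as did 45 of all 33469 promoters (0.134%). An X box with up to 2 mismatches alone was found on either strand in 22.3% of promoters and a Y box in 14.8%. The windows are shown because they set chain genes that rose after irradiation beside RT1-DMa, which did not. Capitals mark the boxes, and all lie on chromosome 20.
RT1-Da (chr20:4515319-4515400, plus strand): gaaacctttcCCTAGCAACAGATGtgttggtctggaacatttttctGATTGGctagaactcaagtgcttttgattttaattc
RT1-Db1 (chr20:4560208-4560288, minus strand): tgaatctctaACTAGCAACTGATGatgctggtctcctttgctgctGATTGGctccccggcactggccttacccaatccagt
RT1-Bb (chr20:4604145-4604225, minus strand): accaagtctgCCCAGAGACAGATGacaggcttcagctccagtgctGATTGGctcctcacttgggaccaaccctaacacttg
RT1-DMa (chr20:4712365-4712446, minus strand): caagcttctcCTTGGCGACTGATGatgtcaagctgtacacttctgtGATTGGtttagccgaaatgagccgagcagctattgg
RT1-Ba, with a Y box only (chr20:4576969-4577048, plus strand): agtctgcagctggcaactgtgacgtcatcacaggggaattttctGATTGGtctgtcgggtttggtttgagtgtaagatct

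The RT1-Da and RT1-Bb X boxes matched the spelling exactly, that of RT1-Db1 had 1 mismatch and that of RT1-DMa 2. The distance between the boxes was 21 bases in RT1-Db1 and RT1-Bb and 22 bases in RT1-Da and RT1-DMa. No such pair was found in the windows of Cd74 and Ifi30, which says only that the pair in this spelling does not occur there. An X box with up to 2 mismatches was found in both when either strand was allowed, and a Y box in neither. RT1-Ba is labelled with a Y box only because no X box of this spelling was found in its promoter. That does not show that the promoter lacks an X box. A match is a description of the sequence and not evidence of binding.

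Library totals ranged from 14.3e6 to 62.7e6 counts, with the widest range in Radiation_LPS. Counts of the 9 genes together made up 1.92% to 2.32% of a library in Radiation_LPS, 2.15% to 2.38% in Radiation_PBS, 1.03% to 1.21% in Control_LPS and 1.00% to 1.04% in Control_PBS. The microglial marker genes Tmem119 (1149.7 to 7089 CPM) and Sall1 (88.9 to 389 CPM) were detected in all 16 libraries, so the labelled cell type was present throughout. Siglech, on the same list of 10 microglial markers, was at 0 in 12 of the 16 libraries, and 9 of the 10 could be tested. Levels are CPM, counts divided by library size after scaling with TMM factors, and are not corrected for transcript length. They therefore compare libraries for 1 gene and not genes with each other. Changes are log2 fold changes ± SE from edgeR's quasi-likelihood test with Benjamini-Hochberg adjustment over all 13608 genes, n = 4 per group. A gene is said to rise or fall where that adjusted p was under 0.05.

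Without an LPS challenge, irradiated microglia carried 7 of the 9 transcripts at a higher level than sham microglia, and 0 at a lower level. Across all tested genes 21.4% passed, 11.5% higher and 9.91% lower. The groups did not overlap for these 7 genes, as for 26.7% of all tested genes. The chain genes, Cd74 and Ciita rose 3.54- to 4.78-fold, Ifi30 rose 1.68-fold, and the exchanger genes RT1-DMa and RT1-DMb did not pass. The median change of the 9 genes was 1.85 on the log2 scale, against -0.00461 over all tested genes.

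Cd74, the invariant chain, stood at 10124, 8959.5, 10285 and 10078 CPM in the Radiation_PBS libraries, against 2800.5, 3271, 2261 and 2799 CPM in the Control_PBS libraries. The lowest irradiated library lay far above the highest sham library, and the change was 1.83 ± 0.15 (adjusted p = 2.31e-07). RT1-Da, the alpha chain of the D pair, measured 1856, 1742, 2072 and 1952 CPM in Radiation_PBS, against 514, 547, 525 and 487 CPM in Control_PBS. Here too the groups did not overlap, and the rise was 1.88 ± 0.16 (adjusted p = 3.48e-07). Its beta chain partner RT1-Db1 had 1410.5, 1586, 1515 and 1398 CPM after irradiation, against 353, 380.4, 439.7 and 331 CPM after sham treatment, a rise of 1.97 ± 0.23. Both chains of the D pair thus rose by about the same amount.

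In the B pair, RT1-Ba had 794, 836, 929.9 and 820.3 CPM in Radiation_PBS, against 222, 249.6, 249.95 and 217 CPM in Control_PBS (1.85 ± 0.17). The beta chain RT1-Bb was more uneven, with 1072, 1670.1, 1375 and 1215 CPM in Radiation_PBS, against 257, 267, 477 and 246 CPM in Control_PBS (2.10 ± 0.35). Sham library 3 held the highest RT1-Bb of its group and still lay below every irradiated library. Ciita, the coactivator, was far less abundant in reads, with 17.2, 12.0, 20.2 and 12.8 CPM in Radiation_PBS, against 3.77, 4.34, 1.79 and 3.12 CPM in Control_PBS. Every irradiated library lay above every sham library, and the rise was 2.26 ± 0.38 (adjusted p = 0.00028).

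Ifi30, the thiol reductase, was at 557, 554, 603 and 521 CPM in Radiation_PBS, against 307, 304, 373 and 349.6 CPM in Control_PBS, a smaller rise of 0.75 ± 0.08 (adjusted p = 4.57e-06) without overlap. RT1-DMa, the alpha chain of the exchanger, had 3035, 2855, 3582 and 3818 CPM in Radiation_PBS, against 4205, 3728, 4045 and 3932 CPM in Control_PBS. RT1-DMb, its beta chain, had 1658, 1816, 1939 and 1929.8 CPM in Radiation_PBS, against 1898, 1868, 2245 and 2016 CPM in Control_PBS. For both exchanger genes the groups overlapped, and the differences of -0.26 ± 0.13 (adjusted p = 0.182) and -0.13 ± 0.09 (adjusted p = 0.357) did not pass. Scaling by library totals alone turned the sign of the RT1-DMb difference, to 0.026.

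**Figure D1:**
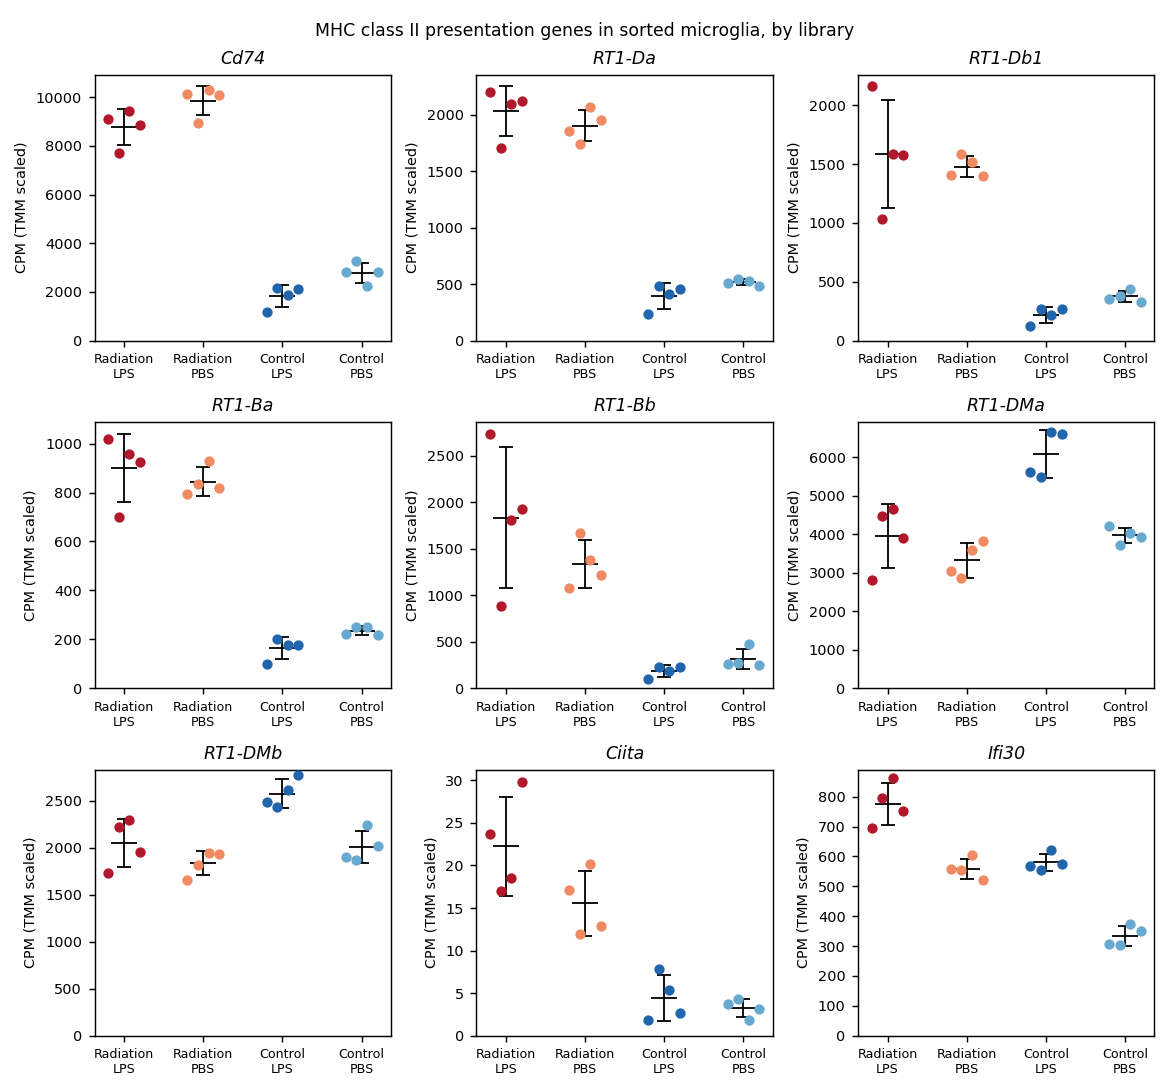
Each panel plots 1 gene; the y axis is CPM scaled with TMM factors and starts at 0, each point is 1 library, and bars are the mean ± SD of 4 libraries. Radiation_LPS and Radiation_PBS points lie above all sham points for Cd74, both chains of the D and B pairs and Ciita, whereas the Control_LPS points are highest for RT1-DMa and RT1-DMb.

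After LPS, the difference between irradiated and sham microglia was found for all 9 genes, with 7 higher and 2 lower, where 27.7% of all tested genes passed, 15.1% higher and 12.6% lower. The median change was 2.33, against 0.01 over all tested genes. Cd74 stood at 9114, 7728, 9419.5 and 8874 CPM in Radiation_LPS, against 1176, 2181, 1889 and 2111 CPM in Control_LPS (2.26 ± 0.16, adjusted p = 1.61e-08). RT1-Da had 2205, 1707, 2099 and 2124 CPM in Radiation_LPS, against 232, 482, 415 and 457 CPM in Control_LPS (2.36 ± 0.17). The groups were apart for both genes, by 4.78- and 5.13-fold.

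RT1-Db1 had 2159, 1033, 1585 and 1577 CPM in Radiation_LPS, against 126, 268, 220.2 and 270.1 CPM in Control_LPS (2.84 ± 0.23). RT1-Ba had 1021, 701, 959 and 926 CPM in Radiation_LPS, against 98.2, 202, 177 and 179 CPM in Control_LPS (2.46 ± 0.17). RT1-Bb had 2729, 878, 1804 and 1925 CPM in Radiation_LPS, against 97.6, 230.2, 189 and 228 CPM in Control_LPS (3.30 ± 0.37). Irradiated library 2 was the lowest of its group for Cd74 and all 4 chains, and sham library 1 the lowest of its group, yet no irradiated library came down to a sham library. The rise of RT1-Bb rested in part on the libraries that also carried much RT1-DOb, which are described further on. It was 2.28 without them, with only 1 Radiation_LPS library left, library 2. The dependence was not particular to RT1-Bb. Over the alternative settings other than leaving out 1 library, the smallest rise was 2.27 for RT1-Db1, 2.14 for RT1-Ba and 2.15 for RT1-Da.

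Ciita had 23.7, 17.0, 18.5 and 29.9 CPM in Radiation_LPS, against 1.82, 7.79, 5.33 and 2.64 CPM in Control_LPS (2.33 ± 0.37, adjusted p = 0.000124). Ifi30 had 697, 796, 863 and 752 CPM in Radiation_LPS, against 568, 554, 622 and 575 CPM in Control_LPS, the smallest of the rises (0.42 ± 0.08, adjusted p = 0.000916). The exchanger genes went the other way. RT1-DMa fell by 0.62 on the log2 scale (SE 0.13, adjusted p = 0.00154), with 2807, 4478, 4661 and 3908 CPM in Radiation_LPS, against 5613, 5481, 6671 and 6604 CPM in Control_LPS. RT1-DMb fell by 0.33 (SE 0.09, adjusted p = 0.0107), with 1735, 2222, 2291 and 1954 CPM in Radiation_LPS, against 2483, 2434, 2609.8 and 2775 CPM in Control_LPS. Neither gene's groups overlapped, so the groups were apart for all 9 genes and for 26.7% of all tested genes. Both calls were lost without the libraries rich in RT1-DOb (-0.40, adjusted p = 0.119, and -0.17, adjusted p = 0.474).

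Markers of other antigen-presenting cells moved with irradiation as well, and their part in the class II rise was not tested. In Radiation_PBS against Control_PBS, 10 of 11 tested markers of border-associated macrophages rose and 0 fell, as did 6 of 9 markers of dendritic cells, 6 of 8 of monocytes and 1 of 5 of B cells. In Radiation_LPS against Control_LPS the rises numbered 10 of 11, 6 of 9, 6 of 8 and 2 of 5. Of all tested genes, 11.5% rose and 9.91% fell in the first comparison, and 15.1% and 12.6% in the second. The B cell counts of 1 and 2 of 5 are not read as a response of that list. The summed level of the border macrophage markers ranged from 3168 to 4354 CPM in Radiation_LPS, 1349.5 to 1674 CPM in Radiation_PBS, 479.9 to 1070.0 CPM in Control_LPS and 401 to 471 CPM in Control_PBS. Dendritic cell markers summed to 58.5 to 95.6 CPM in Radiation_LPS and 55.6 to 94.2 CPM in Radiation_PBS, against 11.5 to 20.9 CPM in Control_LPS and 15.9 to 21.2 CPM in Control_PBS. The dendritic cell genes Flt3 (1.84 ± 0.29) and Xcr1 (1.496 ± 0.43) rose in Radiation_PBS, while Zbtb46 did not pass (0.76 ± 0.41, adjusted p = 0.217), and Cd209a was at 0 in 8 of the 16 libraries.

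B cell markers summed to 7.33 to 27.9 CPM in Radiation_LPS and 11.6 to 18.3 CPM in Radiation_PBS, against 3.54 to 5.46 CPM in Control_LPS and 3.41 to 8.12 CPM in Control_PBS. Of the genes that define B cells, Pax5 was at 0 in 15 libraries. Cd79a, a chain of the B cell receptor complex, was detected in all 16 and rose by 1.60 ± 0.52 in Radiation_PBS against Control_PBS and by 2.12 ± 0.52 in Radiation_LPS against Control_LPS. Monocyte markers summed to 582 to 949 CPM in Radiation_LPS and 401 to 483 CPM in Radiation_PBS, against 289 to 395 CPM in Control_LPS and 147 to 225 CPM in Control_PBS, with Chil3 at 0 in 15 libraries. Of the 9 tested microglial markers 8 fell in Radiation_PBS against Control_PBS, where 9.91% of all tested genes fell. The microglial markers summed to 22134 to 27987 CPM in Radiation_PBS, against 46304 to 49885 CPM in Control_PBS. In bulk samples a change in the share of a cell type and a change in RNA per cell cannot be told apart.

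**Figure D2:**
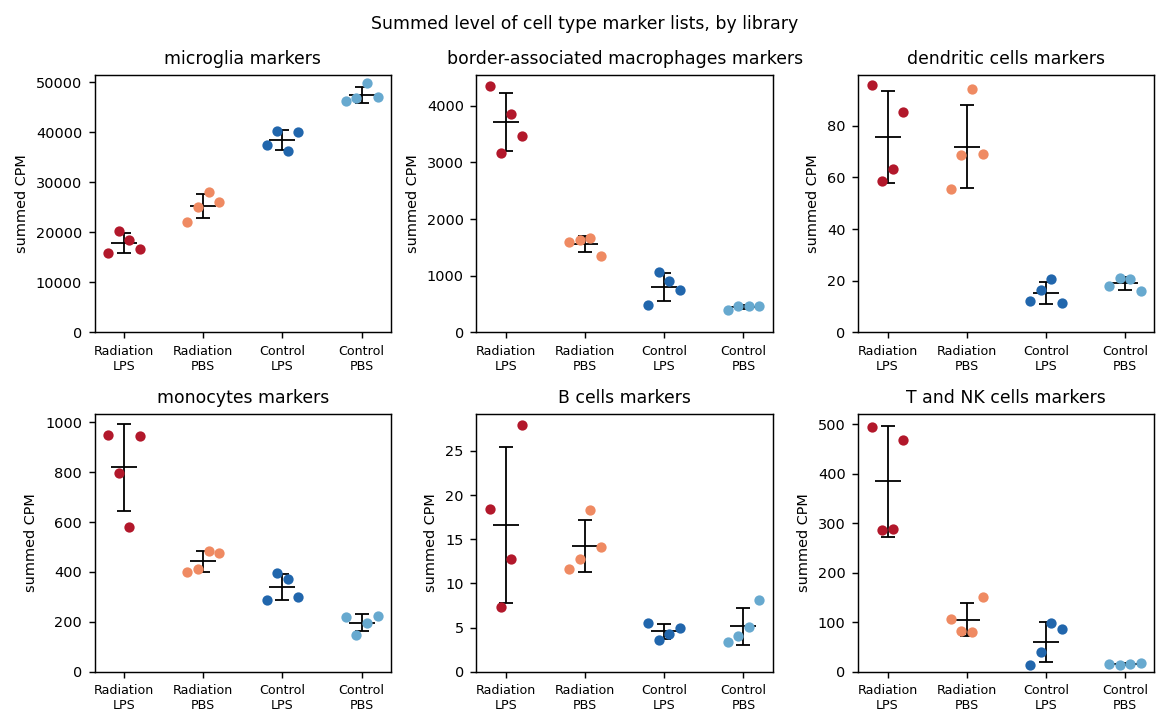
Each panel gives the summed CPM (y axis, from 0) of the markers of 1 cell type; points are libraries and bars the mean ± SD of 4. Markers of border-associated macrophages are highest in Radiation_LPS, dendritic cell markers are alike in Radiation_LPS and Radiation_PBS, and microglial markers are highest in Control_PBS.

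In sham-irradiated rats LPS divided the 9 genes. The invariant chain and part of the chain genes fell, while the exchanger and the reductase rose, so 3 genes were lower and 3 higher (29.6% of all tested genes passed, 15.2% higher and 14.5% lower). Cd74 fell by 0.60 (SE 0.15, adjusted p = 0.00564), RT1-Db1 by 0.77 (SE 0.22, adjusted p = 0.0151) and RT1-Ba by 0.52 (SE 0.16, adjusted p = 0.0242). For these 3 genes the highest Control_LPS library lay below the lowest Control_PBS library. RT1-Da (-0.39 ± 0.16, adjusted p = 0.0758) and RT1-Bb (-0.74 ± 0.34, adjusted p = 0.120) also had groups that did not overlap, but did not pass. Of all tested genes, 29.9% had groups apart in this way. The RT1-Ba call was lost in the fit of only the compared groups (adjusted p = 0.0555), without Control_PBS library 2 (adjusted p = 0.0590) or 3 (adjusted p = 0.0592), and without the libraries rich in RT1-DOb (adjusted p = 0.0801). RT1-Da passed without Control_LPS library 2 (adjusted p = 0.0340), with limma voom (-0.47, adjusted p = 0.0376) and with scaling by library totals alone (-0.43, adjusted p = 0.0397).

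The 3 rises in sham rats were those of Ifi30 (0.80 ± 0.08, adjusted p = 1.65e-06), RT1-DMa (0.62 ± 0.13, adjusted p = 0.00166) and RT1-DMb (0.36 ± 0.09, adjusted p = 0.00565). Control_LPS libraries held 5481 to 6671 CPM of RT1-DMa and Control_PBS libraries 3728 to 4205 CPM, without overlap. Ciita was not called (0.44 ± 0.38, adjusted p = 0.418). It spread from 1.82 to 7.79 CPM in Control_LPS, against 1.79 to 4.34 CPM in Control_PBS.

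With all libraries kept, LPS in irradiated rats changed 1 of the 9 genes, Ifi30, where 31.4% of all tested genes passed, 17.0% higher and 14.5% lower. Ifi30 rose by 0.48 ± 0.08 (adjusted p = 0.000276), with 697 to 863 CPM in Radiation_LPS, against 521 to 603 CPM in Radiation_PBS. Cd74 stood at -0.17 ± 0.15 (adjusted p = 0.443), RT1-Bb at 0.46 ± 0.34 (adjusted p = 0.344) and Ciita at 0.52 ± 0.35 (adjusted p = 0.293), and all 8 genes other than Ifi30 had overlapping groups, while 32.3% of all tested genes had groups apart. RT1-Da (0.09 ± 0.16), RT1-Db1 (0.10 ± 0.22) and RT1-Ba (0.09 ± 0.16) were near 0, and their sign turned when scaled by library totals alone (-0.02, -0.01 and -0.02). RT1-DMa (0.25 ± 0.13, adjusted p = 0.155) and RT1-DMb (0.16 ± 0.09, adjusted p = 0.200) passed once Radiation_LPS library 1 was left out (0.39, adjusted p = 0.00844, and 0.23, adjusted p = 0.0479). That library had the lowest RT1-DMa and RT1-DMb of its group and a summed neutrophil marker level of 1956 CPM, against 273 to 483 CPM in the other Radiation_LPS libraries. Its neuron markers (109 CPM, others 9.41 to 25.0) and oligodendrocyte markers (841 CPM, others 405 to 494) were also the highest of the group. Its microglial markers were the lowest (15944 CPM, others 16657 to 20369). The part of any of these cells was not tested.

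**Figure D3:**
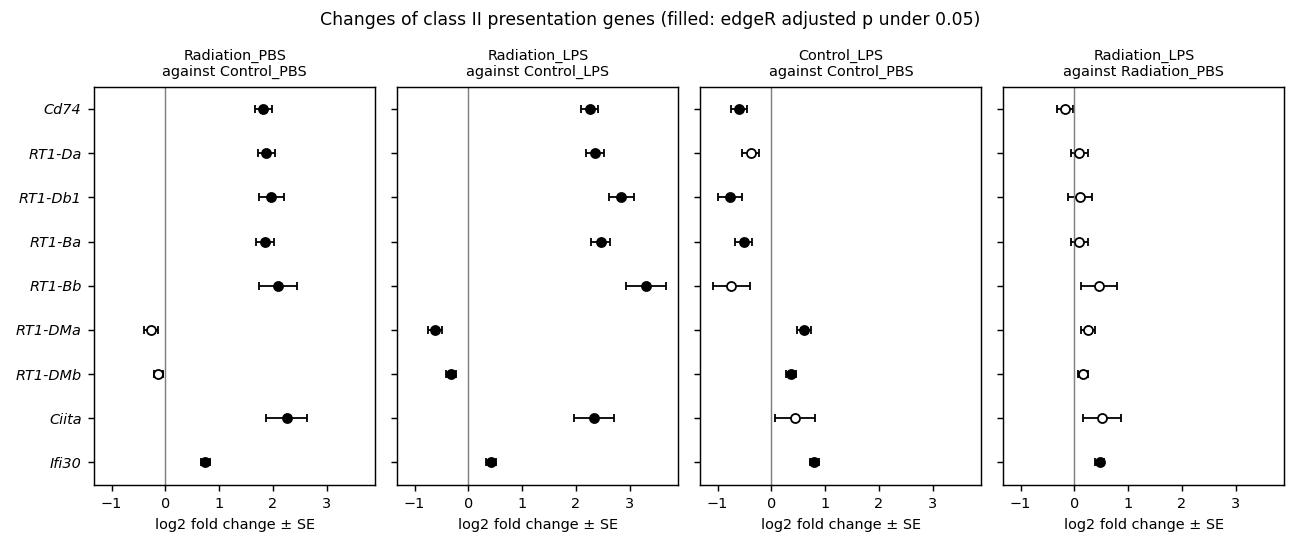
Rows are the 9 genes and panels the 4 comparisons; the x axis is the log2 fold change, bars are ± SE, and filled points passed edgeR's adjusted p of 0.05. The irradiation panels show 7 filled points to the right of 0, the sham LPS panel splits into both directions, and the panel for LPS in irradiated rats has 1 filled point, Ifi30.

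Whether the LPS responses differed between irradiated and sham rats was asked with the interaction, in which 1.26% of all genes passed, 0.610% higher and 0.647% lower. Of the 9 genes 0 passed with edgeR, DESeq2 or limma voom, and 5 had an unadjusted edgeR p under 0.05. The share of all tested genes under that unadjusted threshold is not given here, so the 5 are not read as a result about the family. The difference was 0.87 ± 0.31 for RT1-Db1 (adjusted p = 0.246), 0.61 ± 0.23 for RT1-Ba (adjusted p = 0.274) and -0.32 ± 0.12 for Ifi30 (adjusted p = 0.258). Cd74 had a difference of 0.43 ± 0.21 (adjusted p = 0.445) and RT1-Bb one of 1.20 ± 0.48 (adjusted p = 0.321). Without the libraries rich in RT1-DOb, which leaves 1 Radiation_LPS library, the difference was 0.25 for RT1-Db1, 0.26 for RT1-Ba and 0.034 for RT1-Bb. A difference in LPS response was therefore not shown for any of the 9 genes, although LPS moved 6 of them past the threshold in sham rats and 1 in irradiated rats.

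Set against sham rats given PBS, Radiation_LPS microglia carried the same count of 7 higher genes as Radiation_PBS microglia. In this comparison 45.5% of all genes passed, 23.9% higher and 21.5% lower. The rises ranged from 1.22 ± 0.09 in Ifi30 to 2.77 ± 0.38 in Ciita, with RT1-DMa at -0.01 ± 0.13 and RT1-DMb at 0.03 ± 0.09. This comparison shares Control_PBS or Radiation_LPS libraries with the others. Radiation_PBS against Control_LPS compares either exposure alone. There 6 genes were higher and 2 lower (37.2% of all genes passed, 18.4% higher and 18.8% lower), with Cd74 at 2.42 ± 0.16, RT1-DMa at -0.87 ± 0.13 and RT1-DMb at -0.49 ± 0.09, while Ifi30 was at -0.05 ± 0.08 (adjusted p = 0.660).

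Ordered by group mean, Cd74 was highest in Radiation_PBS (9862 ± 608 CPM, SD, n = 4), next in Radiation_LPS (8784 ± 738), then in Control_PBS (2783 ± 413) and lowest in Control_LPS (1839 ± 459). The irradiated groups did not differ beyond their spread. The 4 chain genes ran Radiation_LPS, Radiation_PBS, Control_PBS and Control_LPS, with the irradiated neighbours indistinguishable. The sham neighbours passed for RT1-Db1 and RT1-Ba but not for RT1-Da or RT1-Bb. RT1-DMa was highest in Control_LPS (6093 ± 632 CPM), followed by Control_PBS (3977 ± 200.5), Radiation_LPS (3963 ± 835) and Radiation_PBS (3322 ± 452), and the last 3 neighbours did not pass. Ifi30 ran from 777 ± 70.1 CPM in Radiation_LPS through 579.8 ± 29.3 in Control_LPS and 559 ± 33.9 in Radiation_PBS to 333 ± 33.9 in Control_PBS, where only the middle neighbours were not called.

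Ratios of 2 genes within a library do not depend on library scaling. The 6 ratios in 4 comparisons were tested with an exact two-sided permutation test, whose smallest p with 4 against 4 libraries is 0.0286. That smallest p was reached in 9 of the 24 tests, for which the adjusted p was 0.0762, so none passed after adjustment. The log2 ratio of RT1-DMa to Cd74 was -1.58 ± 0.15 in Radiation_PBS, against 0.53 ± 0.27 in Control_PBS, a difference of -2.10 (exact permutation p = 0.0286, groups apart). It was -1.17 ± 0.39 in Radiation_LPS, against 1.76 ± 0.39 in Control_LPS, a difference of -2.93 (exact permutation p = 0.0286). The ratio was lower in each of the 8 irradiated libraries than in any sham library. The RT1-Ba to RT1-Da ratio, an alpha chain of each pair, differed by -0.03 with irradiation in PBS rats (-1.17 ± 0.09 in Radiation_PBS, against -1.15 ± 0.06 in Control_PBS, groups overlapping, exact permutation p = 0.571).

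RT1-Bb encodes the partner of RT1-Ba, and the log2 ratio of RT1-Ba to RT1-Bb ran from -1.42 to 0.01 over the 16 libraries. The 5 libraries with the lowest ratios (Radiation_LPS 1, 3 and 4, Radiation_PBS 2 and Control_PBS 3) lay between -1.42 and -0.91, and the other 11 between -0.57 and 0.01. The same 5 libraries were those with the most RT1-DOb, the beta chain of the DO inhibitor of the exchanger, at 29.0 to 60.6 CPM, against 0.276 to 13.6 CPM in the other 11. Their RT1-Da to RT1-Db1 ratio ran from 0.03 to 0.43, against 0.40 to 0.91 in the other 11. Wistar rats are an outbred stock and class II genes are highly polymorphic. Any part of allele differences in how reads were aligned or assigned among the related RT1 genes was not tested. Values of single RT1 genes are uncertain to that extent.

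**Figure D4:**
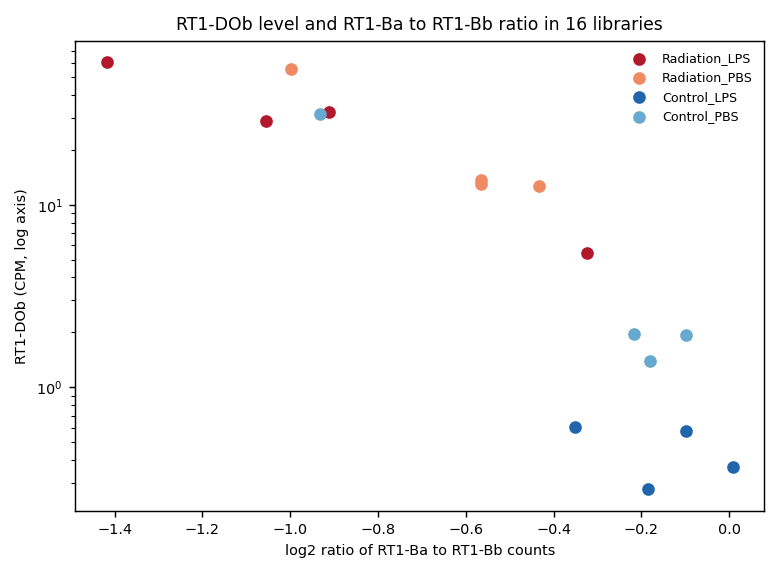
Each point is 1 of 16 libraries; the x axis is the log2 ratio of RT1-Ba to RT1-Bb counts and the y axis the RT1-DOb level in CPM on a log scale. The 5 libraries at 29.0 to 60.6 CPM come from 3 of the groups and sit at the left, at ratios of -0.91 or less.

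RT1-DOa, the alpha chain of the DO inhibitor, rose with irradiation by 2.14 ± 0.30 in PBS rats and 2.64 ± 0.32 in LPS rats, and fell with LPS by 1.17 in sham rats (SE 0.31). It stood at 22.6, 23.5, 32.8 and 28.2 CPM in Radiation_PBS, against 4.81, 7.33, 7.64 and 4.55 CPM in Control_PBS. Its partner RT1-DOb did not pass in PBS rats (1.35 ± 0.98, adjusted p = 0.382), where the levels were 12.8, 55.4, 13.6 and 13.1 CPM in Radiation_PBS, against 1.95, 1.94, 31.5 and 1.39 CPM in Control_PBS. A single library stood apart in either group. In LPS rats it rose by 6.10 ± 1.33 (adjusted p = 0.00382), with 60.6, 5.42, 32.2 and 29.0 CPM in Radiation_LPS, against 0.364, 0.276, 0.573 and 0.606 CPM in Control_LPS. RT1-Db2, another RT1-D beta gene, rose by 0.80 ± 0.20 in Radiation_PBS against Control_PBS and was at 0.19 ± 0.20 (adjusted p = 0.555) in Radiation_LPS against Control_LPS.

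Proteases of the endosome digest antigens and the invariant chain, and cystatins inhibit them. Of 13 proteases and inhibitors, 2 rose and 7 fell in Radiation_PBS against Control_PBS (median -0.33), and 3 rose and 6 fell in Radiation_LPS against Control_LPS (median -0.17). Ctss, the protease that trims the last piece of the invariant chain in many antigen-presenting cells, fell by 0.74 (SE 0.09, adjusted p = 1.56e-05), to 19491, 21186, 23048 and 22968 CPM in Radiation_PBS, against 35612, 35108, 36480.5 and 37429 CPM in Control_PBS. Cst3, the secreted inhibitor cystatin C, fell by 1.09 (SE 0.10), whereas the inhibitor gene Cstb rose by 0.91 ± 0.10. In sham rats LPS raised 1 and lowered 3 of the 13, with Lgmn (-0.38 ± 0.08), an asparagine-specific endopeptidase that also processes the invariant chain, and Ctse (-0.62 ± 0.15) lower and Cst7, a cystatin of activated microglia, higher (2.50 ± 0.51). In irradiated rats LPS raised 3 of the 13 and lowered Cst3 (-0.37 ± 0.10). Cst7 and Sppl2a (0.36 ± 0.08), the peptidase that clears the invariant chain stub, were among the 3. Of all tested genes, LPS raised 15.2% and lowered 14.5% in sham rats, and 17.0% and 14.5% in irradiated rats. Irradiation raised 11.5% and lowered 9.91% in PBS rats, and 15.1% and 12.6% in LPS rats. The same shares hold for the lists below, and list counts near them are not read as a response of the list.

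The promoter complex that Ciita binds has 7 subunits on the list. Nfya, a subunit of the Y box factor, fell by 0.45 (SE 0.10) in Radiation_PBS against Control_PBS and by 0.36 (SE 0.10) in Radiation_LPS against Control_LPS, and the other 6 did not pass in either. Rfxank, a subunit of the X box factor, fell by 0.42 (SE 0.14) with LPS in sham rats, and 0 of 7 passed in edgeR with LPS in irradiated rats (1 at an unadjusted p under 0.05).

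Interferon gamma is the main known inducer of Ciita. Its transcript Ifng had 0 counts in all 8 sham libraries, 1 to 5 counts in the Radiation_PBS libraries and 15 to 34 in the Radiation_LPS libraries, too few to be tested with edgeR. Set against a floor of 3 counts over the Control_LPS group, Ifng was at least 14.6-fold higher in Radiation_LPS. T and NK cell markers, whose cells produce this cytokine, summed to 287 to 495 CPM in Radiation_LPS and 80.4 to 151 CPM in Radiation_PBS, against 13.4 to 99.4 CPM in Control_LPS and 13.9 to 17.8 CPM in Control_PBS. Of their 9 tested markers, 9 rose in Radiation_PBS against Control_PBS. In Radiation_LPS against Control_LPS 7 rose and 2 did not pass. The part of T and NK cells in the class II levels was not tested.

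Among the 9 tested genes between interferon gamma and Ciita, 2 rose (Socs1, a feedback inhibitor, 2.30 ± 0.68, and the kinase gene Jak2, 0.56 ± 0.17) and Ifngr1, a receptor chain, fell (-0.57 ± 0.09) in Radiation_PBS against Control_PBS. Irf1, a transcription factor that acts on Ciita, did not pass for irradiation. It had 69.4, 69.2, 99.4 and 92.9 CPM in Radiation_PBS, against 79.4, 67.5, 72.6 and 92.4 CPM in Control_PBS. With LPS, 6 of the 9 rose and 1 fell in sham rats, led by Irf1 at 2.51 ± 0.18, and 6 rose and 1 fell in irradiated rats, with Irf1 at 2.36 ± 0.18. In irradiated against sham rats given LPS, Jak2 rose (1.05 ± 0.17) and Ifngr1 fell (-0.68 ± 0.09).

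**Figure D5:**
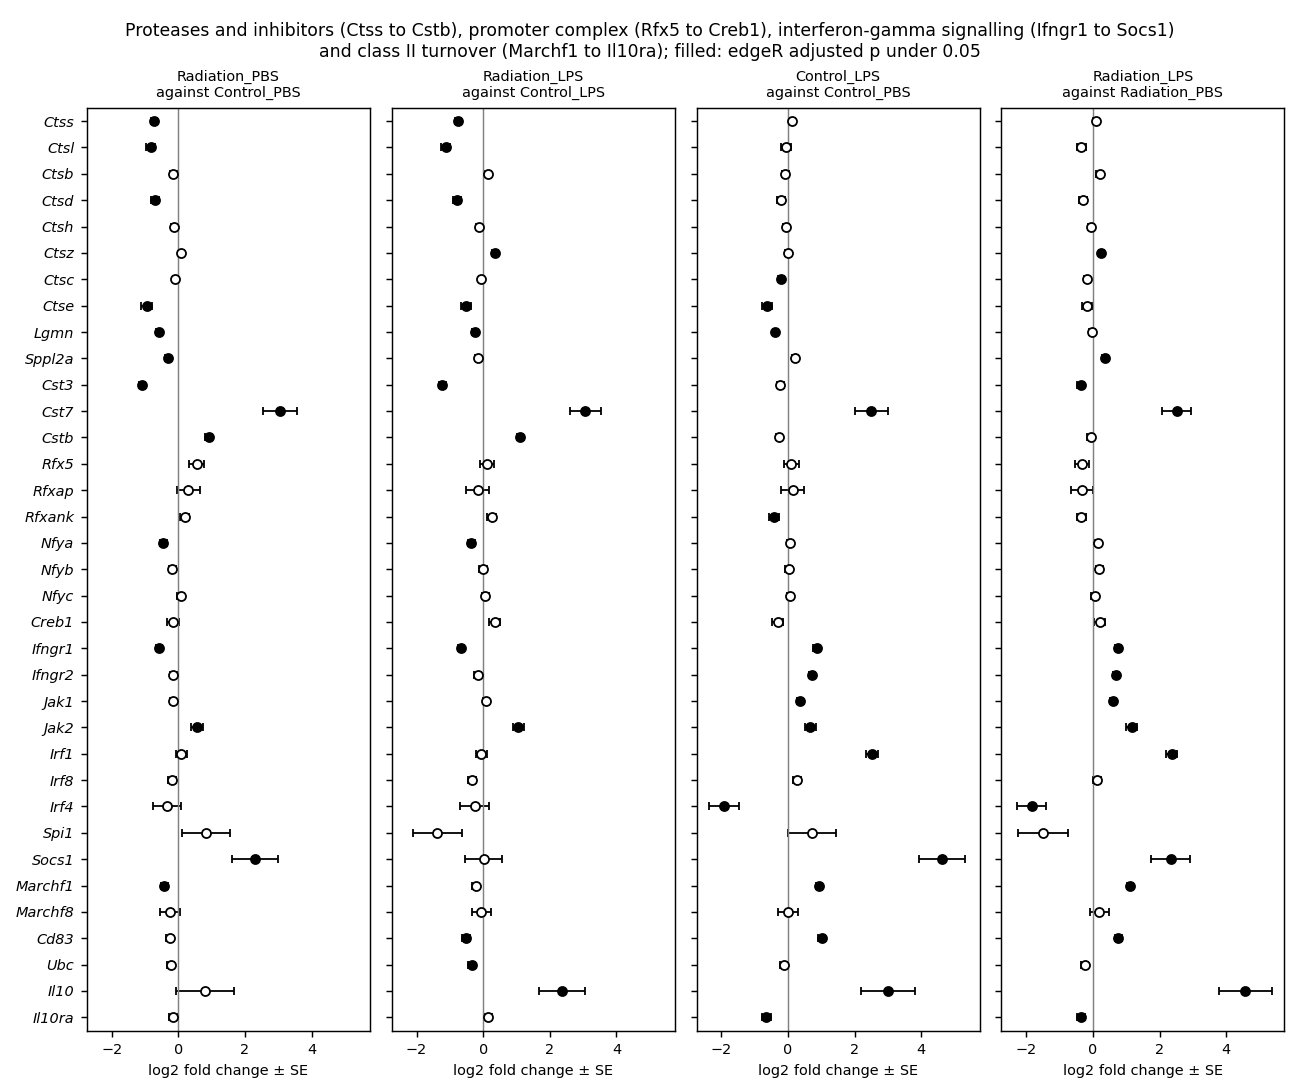
Rows are genes of antigen processing, the promoter complex, interferon gamma signalling and class II turnover, panels are the 4 comparisons, the x axis is the log2 fold change with ± SE, and filled points passed edgeR's adjusted p of 0.05. Ctss and Cst3 are left of 0 in both irradiation panels, and Irf1 and the receptor genes are right of 0 in both LPS panels.

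Class II is removed from the surface after ubiquitination by Marchf1, which Cd83 opposes and Il10 induces. Of 6 turnover genes, Marchf1 fell in Radiation_PBS against Control_PBS (-0.42 ± 0.10) and the other 5 did not pass. LPS raised 3 of the 6 in sham rats, with Cd83 at 1.01 ± 0.11 and Marchf1 at 0.93 ± 0.10, and 3 in irradiated rats, with Marchf1 at 1.11 ± 0.10 and Il10 at 4.58 ± 0.78. In Radiation_LPS against Control_LPS, Il10 rose by 2.37 ± 0.68 and Cd83 fell by 0.51 (SE 0.11). Lag3, a class II receptor, fell in Radiation_PBS against Control_PBS (-1.08 ± 0.24).

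Co-stimulatory genes encode surface proteins that T cells need beside class II. Of 5, 0 passed in edgeR in Radiation_PBS against Control_PBS (2 at an unadjusted p under 0.05), 3 rose with LPS in sham rats (Icam1 by 1.86 ± 0.12 and Cd40 by 1.35 ± 0.13) and 4 rose with LPS in irradiated rats (Cd86 by 0.91 ± 0.09). In Radiation_LPS against Control_LPS, 3 rose (Cd86 by 0.74 ± 0.09) and Icosl, named after its values were seen, fell (-0.91 ± 0.31). In the interaction 0 of the 44 tested genes of these lists passed with edgeR, and 11 had an unadjusted p under 0.05. Without the share of all tested genes under that unadjusted threshold, the 11 are not read as a result about these lists.

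The pattern of Cd74 over the 16 libraries was compared with that of all other tested genes by the root mean square difference of log2 CPM centred on each gene's own mean. RT1-Da was the closest of all (0.159) and RT1-Ba the next (0.175), while RT1-Db1 ranked 4 (0.308), RT1-Bb 118 (0.555), Ciita 141 (0.577), Ifi30 1667, RT1-DMb 8150 and RT1-DMa 10447. The genes outside the family with the smallest differences were Cd68, Anxa4, Dok3, Lgals9, Tnfsf13 and Itgal. Cd68, a lysosomal glycoprotein of phagocytes, ranked 3 (0.265), with 517 ± 51.7 CPM in Radiation_LPS and 534 ± 80.6 CPM in Radiation_PBS, against 103 ± 16.8 CPM in Control_LPS and 121 ± 5.67 CPM in Control_PBS (SD, n = 4 each). Itgal, an integrin chain, also stands on the monocyte marker list. The rank is a description over libraries that share their groups.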

How the data were processed

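The deposited files hold raw read counts per Ensembl gene for 16 libraries, and the authors' table summed over symbols was checked against them (0 of 349472 cells differed). FastQC 0.11.9, fastp 0.23.2, HTSeq 2.0.2 and build mRatBN7.2 are named in the submitters' processing notes; no source used here gives the aligner, annotation release or strand. The main test was edgeR 4.0.16 in R 4.3.3 (TMM scaling, filterByExpr, robust quasi-likelihood fit of all 16 libraries, 1 coefficient per group; common biological coefficient of variation 0.289); SE was the absolute log2 change divided by the square root of F. Ratios (counts + 0.5) were tested with SciPy 1.17.1 by exact permutation. Alternatives were DESeq2 1.42.0, weighted voom of limma 3.58.1, changed filters or scaling, a 1.5-fold test, a replicate block and libraries left out. In each of 24 replicate pairs the libraries differed beyond sampling noise. The test was checked on simulated data. Members, lists and spellings were chosen with earlier results of these data known. Named were the 9 genes, up to 3 genes per list and comparison by smallest p, RT1-DOa, RT1-DOb, RT1-Db2, Ctss, Irf1 and Ifng, the 6 genes most like Cd74 (mean log2 CPM not under 3), and defining markers. RT1-Ha, RT1-Hb, Cd4 and Cldn5 were not analysed here.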

Additional observations from a re-analysis of the deposited data

Results flagged for a closer look

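In groups of 4 libraries, 1 library lay far from the other 3 by Dixon's test in 5 of 60 groups, and chance gives about 1 in 20. The 60 include Ifng in Control_LPS and in Control_PBS, which had 0 counts throughout and could not be checked. RT1-DOb was high in Radiation_PBS library 2 (55.4 CPM, others 12.8 to 13.6) and in Control_PBS library 3 (31.5 CPM, others 1.39 to 1.95). RT1-Bb was high in the same Control_PBS library 3 (477 CPM, others 246 to 267). Cd74 was lowest in Radiation_PBS library 2 (8959.5 CPM, others 10078 to 10285). Irf1 was highest in Control_LPS library 3 (585 CPM, others 389 to 403).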

How the results depend on the processing

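Counts of the 9 genes called stayed within 1.5 times of the main count in every comparison and alternative except those given here. Tested against a 1.5-fold change, 1 gene was called for LPS in sham rats and 0 for LPS in irradiated rats; for LPS in irradiated rats 2 were called without both irradiated libraries numbered 1, and 1 to 3 when each library was left out in turn. Signs turned only for differences that were not called. Library totals alone gave 0.0261 for RT1-DMb in Radiation_PBS against Control_PBS, -0.0220, -0.00701 and -0.0205 for RT1-Da, RT1-Db1 and RT1-Ba in Radiation_LPS against Radiation_PBS, 0.0271 for RT1-DMa in Radiation_LPS against Control_PBS, and 0.14 for Ifi30 in Radiation_PBS against Control_LPS; this scaling shifted the median of all genes by 0.16, -0.12 and 0.19 in Radiation_PBS against Control_PBS, Radiation_LPS against Radiation_PBS and Radiation_PBS against Control_LPS, with 2331 higher and 725 lower, 1784 and 2768, and 3748 and 1610 genes. Without both irradiated libraries numbered 1, RT1-Db1 was at -0.10 in Radiation_LPS against Radiation_PBS and RT1-DMa at 0.15 in Radiation_LPS against Control_PBS. Without the 5 libraries above 20 CPM of RT1-DOb, chosen after seeing the data and leaving 1 Radiation_LPS library that is assumed to vary like the others, RT1-Da, RT1-Db1, RT1-Ba and RT1-Bb were at -0.16, -0.44, -0.24 and -0.44 in Radiation_LPS against Radiation_PBS, RT1-DMa at 0.22 and RT1-Bb at 1.81 in Radiation_LPS against Control_PBS, and Ciita at -0.17 in the interaction. With each library left out, values ran from -0.0777 to 0.27 for RT1-Db1 in Radiation_LPS against Radiation_PBS, -0.0919 to 0.13 for RT1-DMa and -0.0270 to 0.10 for RT1-DMb in Radiation_LPS against Control_PBS, and -0.18 to 0.51 for Ciita in the interaction. The cause was not tested.

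With the replicate block, 7, 9, 6, 1, 7, 8 and 0 of the 9 genes were called, as without it. The labels give the replicate numbers no meaning, and 10 of 24 same-numbered pairs, not all, had r over 0.1 (-0.09 to 0.40), so libraries were not treated as pairs. The cut-off of 0.1 was a free choice. Among libraries of all numbers in the other groups, 11 of 16 libraries correlated best with one of their own number. The data thus hold a sign of pairing that the design does not state and that the main p-values leave out. Over all genes, the test against a 1.5-fold change called 831 against 2914 for Radiation_PBS against Control_PBS, 1270 against 3771 for Radiation_LPS against Control_LPS, 937 against 4031 for Control_LPS against Control_PBS, 1142 against 4277 for Radiation_LPS against Radiation_PBS and 23 against 171 for the interaction. For the interaction DESeq2 called 427, the fit without both irradiated libraries numbered 1 called 98, and fits without Radiation_PBS library 3 or 4, Radiation_LPS library 4 or Control_PBS library 1 or 3 called 103 to 113. Without the libraries rich in RT1-DOb, 1330 genes were called for Radiation_LPS against Control_LPS, 1351 for Radiation_LPS against Radiation_PBS, 2897 for Radiation_LPS against Control_PBS and 16 for the interaction. With 4 libraries a group, small differences in LPS response could not be called.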
